A study of Homo sapiens with 6 samples.

Results

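Splicing regulators of the SR, hnRNP, PTB, MBNL and RBFOX families, together with RBM38, were examined in HUDEP-2 cells after knockdown of MEN1. The 38 genes were taken by symbol from gene tables that hold 62754 genes each: 12 SR protein genes (SRSF1 to SRSF12), 18 hnRNP genes, 3 PTBP genes, 3 MBNL genes, RBFOX2 and RBM38. All 38 symbols were found once. HUDEP-2 is an immortalised line of human erythroid progenitors. The cells were transduced with a lentiviral shRNA against MEN1, which encodes menin, a subunit of MLL1 histone methyltransferase complexes, or with a non-targeting control shRNA, and each group had 3 libraries labelled as biological replicates. Both groups were kept in a serum-free medium with erythropoietin, stem cell factor, dexamethasone and doxycycline, both received puromycin at 2 µg per ml from 24 h after infection for 48 h, and both were profiled at 72 h. The titles name 1 MEN1 hairpin (MEN1sh2) and 1 cell line, so an effect of losing MEN1 and an off-target effect of this hairpin cannot be told apart. No source used here says whether the replicates were separate transductions, so p-values measure the spread between these libraries. The series asks how the MLL1 complex takes part in the repression of fetal hemoglobin.

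SR proteins bind exonic enhancers through RNA recognition motifs and recruit the spliceosome through domains rich in arginine and serine, which are phosphorylated by the SRPK and CLK kinases. The hnRNP proteins coat nascent RNA, and several of them silence exons, so that SR and hnRNP proteins often act against each other on the same exon. MBNL, RBFOX, PTB and RBM38 proteins act on smaller sets of exons and differ more between tissues. In maturing erythroid cells a well-studied switch is the inclusion of an exon of EPB41, which encodes the membrane skeleton protein 4.1R. RBFOX2 and RBM38 are known to promote its inclusion, and hnRNP A/B proteins to silence it. Many genes of these families also control their own mRNA by splicing in a cassette exon that exposes the transcript to nonsense-mediated decay.

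MEN1 checks the labels (chromosome 11, 64803510 to 64811294, minus strand). In the knockdown it measured 6.29, 6.44 and 6.88 TPM (transcripts per 1000000) against 41.2, 39.6 and 37.1 TPM in the control libraries, with no overlap. This is -2.42 as a log2 fold change (SE 0.0803, adjusted p 8.5e-06 in limma). The libraries held 5565000000 to 10810000000 aligned bases, as inferred from the tables, and 13865 to 14361 genes per library had at least 1 TPM. All 10 erythroid markers examined were at 5 TPM or more in every library, among them HBB, GATA1 and KLF1. Their summed level was 55447 to 61495 TPM in the control libraries and 95907 to 107883 TPM in the MEN1 shRNA libraries. Of 7 megakaryocyte markers, 6 were below 1 TPM in every library, with PF4 and PPBP listed at 0, while ITGA2B was at 16.1 to 36.3 TPM and the list summed to 17.1 to 21.8 TPM with the MEN1 shRNA and 32.0 to 36.8 TPM in the controls. Of 7 markers each, 5 myeloid, 6 lymphoid and 4 stromal or epithelial genes stayed below 1 TPM, with the B-cell marker MS4A1 listed at 0 throughout. Above that level in at least 1 library, EPCAM was at 121 to 245 TPM, CEBPE at up to 10.9 TPM and KRT18 at 2.93 to 6.15 TPM. CD3D was at up to 5.43, COL1A1 at up to 2.24 and LYZ at up to 1.67 TPM. In the control and MEN1 shRNA libraries the list sums were 9.16 to 13.6 and 2.51 to 2.89 TPM for myeloid genes, 1.11 to 1.32 and 3.97 to 6.05 TPM for lymphoid genes, and 235.2 to 248.7 and 125 to 144 TPM for stromal and epithelial genes. EPCAM made up most of the stromal and epithelial sums. CEBPE made up most of the myeloid sums in the controls, and CD3D most of the lymphoid sums with the MEN1 shRNA. The part of these shifts in the values of the splicing regulators was not tested. In bulk RNA, fewer cells of a type and less RNA per cell cannot be told apart.

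The largest change was at MBNL2, a muscleblind-like RNA-binding protein, which rose 2.48-fold while its relatives MBNL1 and MBNL3 fell. RBM38 rose 1.75-fold. SRSF1, the best-studied SR protein, fell to 0.539 of the control mean but with a wide spread among the controls. The hnRNP genes moved little: 5 of 18 were lower and the rest did not pass the test. Of the 37 genes that had at least 1 TPM in 3 or more libraries, 13 (35.1%) reached an adjusted p below 0.05 in limma, with 3 genes higher after knockdown and 10 lower. Over all 14294 genes tested, 53.6% passed (22.1% higher and 31.5% lower), so the share among the splicing regulators was below the background. The folds above are ratios of mean TPM, while log2 fold changes here and below are differences of log2(TPM + 1), and "rose" and "fell" are used only for genes past this test. The excluded gene, SRSF12, was listed at 0 to 0.260 TPM.

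The changes were also smaller than over all genes tested. Only 4 of the 37 passed with a change of at least 1.5-fold on that log2 scale, against a background of 28.9%: MBNL2 and RBM38 were higher, SRSF1 and MBNL3 lower. The libraries of the groups did not overlap for 16 of the 37, 4 higher and 12 lower, against a background of 61.8%. The median absolute log2 fold change was 0.19 against 0.37 for all genes tested. Most of these genes are abundant, so a second background was taken, at a mean level chosen after the values were seen: among the 4879 genes with a mean of at least 30 TPM the median was 0.34 and 64.3% passed. The signed median was -0.00 for the splicing regulators and -0.07 for all genes tested. The split of calls depended on scaling, with 7 higher and 8 lower of the 37 under median-of-ratios scaling, which moved the median of all genes by 0.08. Quantile normalization, which moved that median by 0.07, gave 4 higher and 11 lower. FPKM gave 3 higher and 9 lower, and TPM rescaled without globin and mitochondrial genes 4 higher and 9 lower.

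**Figure D1:**
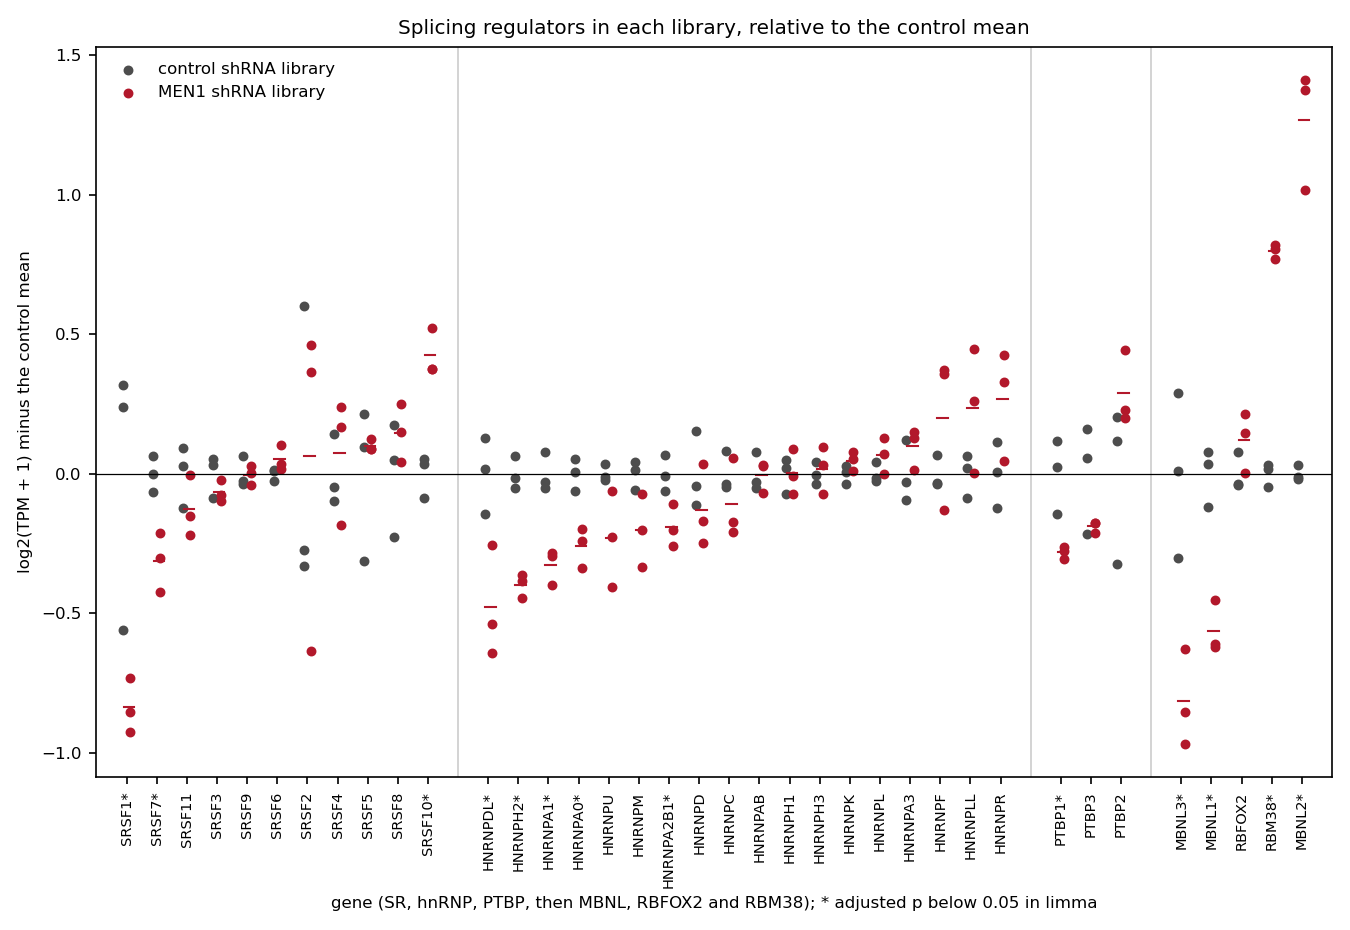
Each point is 1 library, plotted as log2(TPM + 1) minus the mean of the 3 control libraries (y axis), for the 37 splicing regulators that were tested (x axis, ordered within each family by the difference). Grey points are control shRNA libraries, red points MEN1 shRNA libraries, short lines the MEN1 shRNA mean, and an asterisk marks an adjusted p below 0.05 in limma. MBNL2 and RBM38 stand highest and SRSF1, MBNL3 and MBNL1 lowest, while most hnRNP means lie close to the control mean.

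The 4 genes that passed with at least a 1.5-fold change are shown by the sequence upstream of a RefSeq transcription start (RefSeq, GRCh38.p14), because they are the members whose level moved most. The window is the 250 bases upstream of the RefSeq start nearest to the start in the deposited tables, printed 5′ to 3′ on the gene's strand and ended where a transcript of the gene in GENCODE v29 has its 5′ untranslated region. The MBNL2 start used lies 899 bases inside the gene as deposited, so its stretch lies within the gene and not in front of it. The SRSF1 stretch is chr17:58007347-58007496 on the minus strand, MBNL2 chr13:97222083-97222295 on the plus strand, MBNL3 chrX:132490036-132490285 on the minus strand and RBM38 chr20:57391146-57391395 on the plus strand. Capitals mark matches on either strand to any of 4 motifs: AGATAA or TGATAA (bound by GATA factors), CCNCNCCC (bound by KLF and SP factors), CACGTG (bound by MYC, MAX and USF) and CCAAT (bound by NF-Y). Overlapping matches run together.
SRSF1: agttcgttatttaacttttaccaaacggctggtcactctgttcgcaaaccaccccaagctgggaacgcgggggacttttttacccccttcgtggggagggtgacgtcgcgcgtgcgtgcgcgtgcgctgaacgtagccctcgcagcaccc
MBNL2: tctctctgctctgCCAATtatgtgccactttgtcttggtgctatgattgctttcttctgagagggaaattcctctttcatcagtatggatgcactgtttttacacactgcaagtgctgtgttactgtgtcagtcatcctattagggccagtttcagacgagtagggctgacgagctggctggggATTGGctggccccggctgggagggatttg
MBNL3: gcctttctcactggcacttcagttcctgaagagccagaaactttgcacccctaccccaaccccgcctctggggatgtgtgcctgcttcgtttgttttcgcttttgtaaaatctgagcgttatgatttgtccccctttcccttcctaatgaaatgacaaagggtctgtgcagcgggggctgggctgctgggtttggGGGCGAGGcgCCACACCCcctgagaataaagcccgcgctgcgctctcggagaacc
RBM38: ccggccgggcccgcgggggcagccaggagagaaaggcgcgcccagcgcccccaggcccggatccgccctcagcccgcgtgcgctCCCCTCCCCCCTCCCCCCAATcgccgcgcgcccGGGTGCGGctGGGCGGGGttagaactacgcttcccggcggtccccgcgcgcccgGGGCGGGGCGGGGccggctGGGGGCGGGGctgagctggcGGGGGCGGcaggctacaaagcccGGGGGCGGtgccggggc

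The 4 windows differ in base composition. The full 250 bases held 35 CpG dinucleotides at RBM38, 28 at SRSF1, 11 at MBNL3 and 4 at MBNL2. RBM38 had 12 matches to CCNCNCCC, some of them overlapping, and 1 to CCAAT, MBNL3 had 2 matches to CCNCNCCC (GGGCGAGG and CCACACCC), and MBNL2 had 2 to CCAAT. SRSF1 had none in the printed stretch and a TGATAA 10 bases before the RefSeq start, in the stretch that is not printed. Windows were found for 35 of the 38 genes (not for SRSF2, HNRNPA1 and RBFOX2), and for MBNL1, SRSF9 and SRSF5 the RefSeq start lay 25101, 26198 and 40242 bases from the deposited one. CCNCNCCC was present in 27 (77.1%) of them against 53.3% of 34943 RefSeq windows of the same length, CCAAT in 18 (51.4%) against 32.0%, CACGTG in 6 (17.1%) against 6.32%, and the GATA motif in 1 (2.86%) against 14.6%. The median was 26 CpG dinucleotides and 66% GC against 11 and 58% for all windows, and the expected number of motif matches changes with base composition. The median CpG count was 23 for the 3 members that rose, 26 for the 9 with a window that fell and 26 for the 22 that did not pass. A match is a description of letters and not a binding site.

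The MBNL family showed opposite changes among its members. MBNL proteins are zinc finger proteins that activate or silence exons by binding YGCY motifs, and they are sequestered by expanded CUG repeats in myotonic dystrophy. MBNL2 (ENSG00000139793, chromosome 13, 97221434 to 97394120, plus strand) measured 53.3, 70.2 and 68.5 TPM in the knockdown libraries against 25.4, 25.6 and 26.4 TPM in the controls. All MEN1 shRNA libraries were above all controls, and replicate 1 was the lowest of its group. The mean rose from 25.8 ± 0.513 to 64.0 ± 9.36 TPM (SD, n = 3 each), a log2 fold change of 1.27 (SE 0.108, adjusted p 8.5e-05). It lay between 1.197 and 1.39 when any 1 library was left out.

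MBNL1 (ENSG00000152601, chromosome 3, 152243828 to 152465780, plus strand) had the highest TPM of the 3 in every library. It measured 98.8, 88.5 and 87.8 TPM in the knockdown libraries against 125, 139 and 143 TPM in the controls. The groups did not overlap, and MBNL1 fell from 136 ± 9.66 to 91.7 ± 6.13 TPM, which is -0.56 as a log2 fold change (SE 0.0762, adjusted p 0.000619). MBNL3, the X-linked member (ENSG00000076770, chromosome X, 132369320 to 132489968, minus strand), measured 14.8, 11.5 and 12.6 TPM in the knockdown libraries against 28.95, 18.8 and 23.7 TPM in the controls. It fell from 23.8 ± 5.05 to 13.0 ± 1.70 TPM, which is -0.82 as a log2 fold change (SE 0.160, adjusted p 0.00369), with the lowest control, replicate 2, still above every MEN1 shRNA library. In the coverage of the whole gene scaled for depth, MBNL3 did not pass (log2 fold change -0.34, adjusted p 0.446), and control replicate 2 lay at 1.36, below the MEN1 shRNA values of 2.75, 1.38 and 2.35. With no filter on low genes, MBNL3 did not pass either (adjusted p 0.0704).

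Because the members moved in opposite directions, the family's sum changed less than its composition. The 3 genes together gave 167, 170 and 169 TPM with the MEN1 shRNA and 179, 184 and 193 TPM with the control shRNA. MBNL2 made up 31.9%, 41.3% and 40.6% of this sum against 14.2%, 13.9% and 13.6%, so its share was 37.9% ± 5.21 against 13.9% ± 0.274 (SD, n = 3 each). MBNL1 went from 73.2% ± 3.17 to 54.4% ± 4.16 of the sum and MBNL3 from 12.9% ± 2.99 to 7.70% ± 1.09. By TPM the order was MBNL1, MBNL2, MBNL3 except in control replicate 1, where MBNL3 exceeded MBNL2. By depth-scaled coverage the order differed: MBNL2 exceeded MBNL1 in MEN1 shRNA replicates 2 (4.64 against 3.83) and 3 (4.95 against 3.77), and MBNL3 exceeded MBNL2 in control replicates 1 (4.39 against 1.88) and 3 (3.79 against 1.75). A share within a library is not affected by how the libraries are scaled to each other, but it does depend on the measure.

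**Figure D2:**
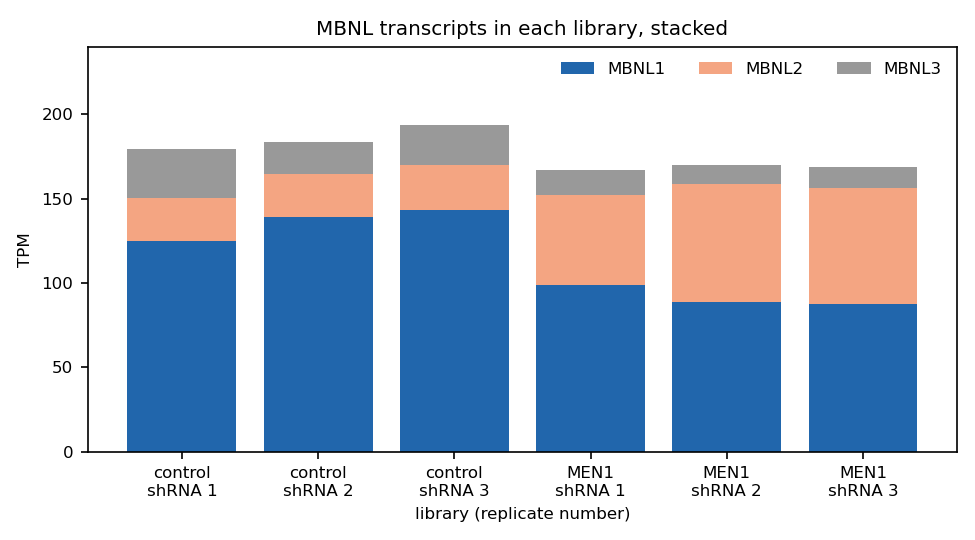
Stacked bars give the TPM (y axis) of MBNL1, MBNL2 and MBNL3 in each of the 6 libraries (x axis, by group and replicate number). The total is 179 to 193 TPM in the control libraries and 167 to 170 TPM in the MEN1 shRNA libraries, and the MBNL2 segment widens from 25.4 to 26.4 TPM to 53.3 to 70.2 TPM.

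RBM38 carries a single RNA recognition motif, is a target of p53 and activates erythroid exons late in differentiation. RBM38 (ENSG00000132819, chromosome 20, 57391396 to 57409333, plus strand) measured 139, 141 and 136 TPM in the knockdown libraries against 80.9, 80.1 and 76.5 TPM in the controls. Libraries within a group were nearly alike, and the groups lay far apart. RBM38 rose from 79.2 ± 2.36 to 139 ± 2.50 TPM, which is 0.80 as a log2 fold change (SE 0.0530, adjusted p 3.7e-05), and the value stayed between 0.78 and 0.89 in all alternatives. RBFOX2, which binds UGCAUG and acts on the same erythroid exon, was expressed at a low level. It measured 3.49, 3.96 and 4.20 TPM in the knockdown libraries against 3.35, 3.72 and 3.37 TPM, with overlapping groups (log2 fold change 0.12, adjusted p 0.421). Its sign depended on the measure: in depth-scaled coverage the MEN1 shRNA libraries (0.143, 0.159 and 0.179) were all below the controls (0.208, 0.225 and 0.226), at a log2 fold change of -0.07 (adjusted p 0.0715). At such low values the added 1 strongly compresses the log2 fold change, so -0.07 understates the difference between the listed values.

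PTBP1, the polypyrimidine tract binding protein that silences exons in most tissues outside the nervous system, was the only PTBP gene past the test. PTBP1 (chromosome 19, 797075 to 812327, plus strand) measured 333, 323 and 330 TPM in the knockdown libraries against 362, 434 and 407 TPM in the controls. The groups did not overlap, and PTBP1 fell from 401 ± 36.9 to 329 ± 5.19 TPM, which is -0.28 as a log2 fold change (SE 0.0731, adjusted p 0.0135). With no filter on low genes, PTBP1 did not pass (adjusted p 0.114). PTBP2, the neuronal paralog whose mRNA PTBP1 is known to send to decay, was at 8.84, 7.46 and 7.30 TPM against 4.77, 6.85 and 7.33 TPM, and the groups overlapped (log2 fold change 0.29, adjusted p 0.163). PTBP2 made up 2.06% ± 0.195 of the summed PTBP level with the MEN1 shRNA and 1.37% ± 0.231 in the controls. PTBP3 was at 45.4, 45.3 and 44.2 TPM against 53.4, 57.5 and 44.02 TPM. It did not pass (log2 fold change -0.19, adjusted p 0.149), and control replicate 3 lay just below the MEN1 shRNA libraries. Without that library the value was -0.30 (adjusted p 0.0161).

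**Figure D3:**
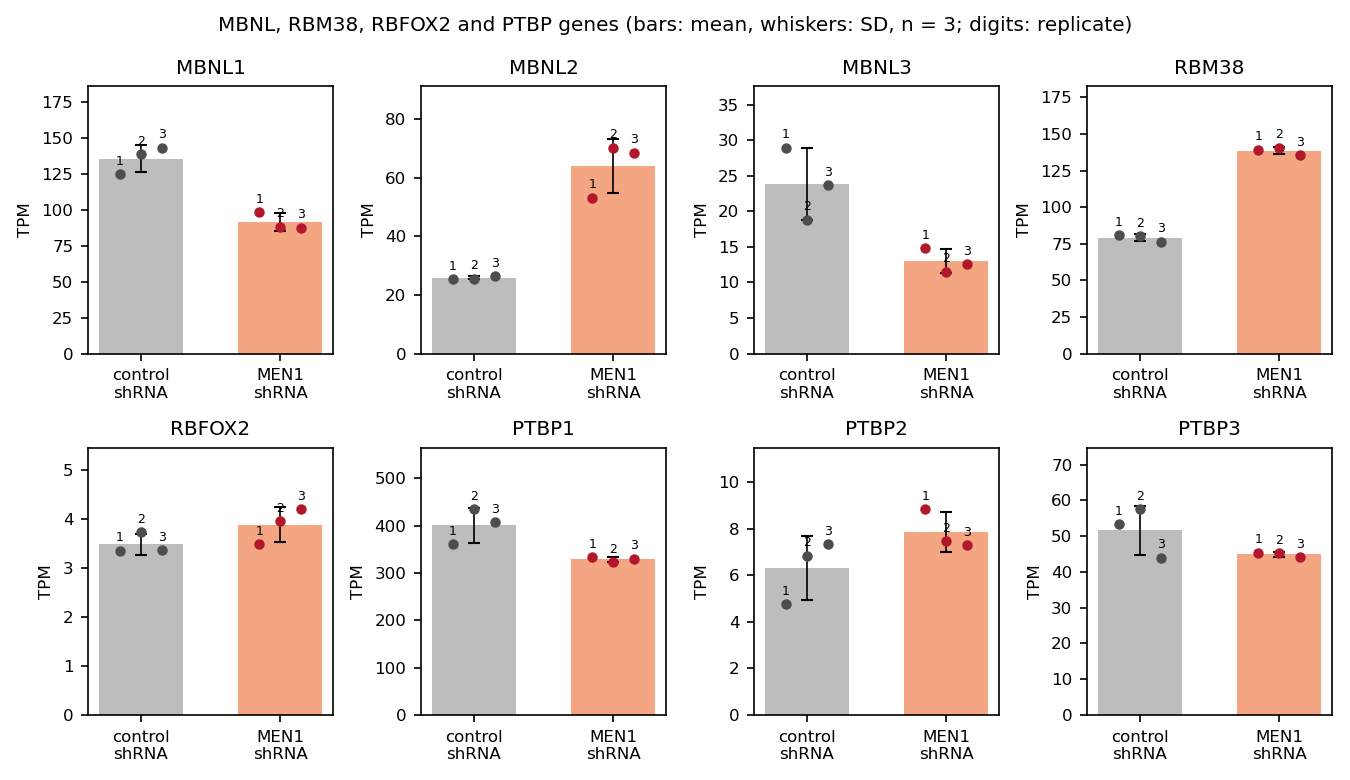
Panels give the TPM (y axis, from 0) of MBNL1, MBNL2, MBNL3, RBM38, RBFOX2, PTBP1, PTBP2 and PTBP3 in control and MEN1 shRNA libraries (x axis). Bars are means, whiskers the SD (n = 3), points single libraries and digits the replicate numbers. MBNL2 and RBM38 are higher and MBNL1, MBNL3 and PTBP1 lower in all 3 MEN1 shRNA libraries, while PTBP2, PTBP3 and RBFOX2 overlap.

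Among the SR protein genes, 3 of 11 tested passed (27.3%), against 53.6% of all genes tested, with SRSF10 higher and SRSF1 and SRSF7 lower. The median log2 fold change of the 11 was 0.05, and the same 1 higher and 2 lower calls were counted under every scaling of TPM tried. SRSF1 (ENSG00000136450, chromosome 17, 58000919 to 58007346, minus strand) is the SR protein first purified as a splicing factor and is also an oncoprotein. It measured 88.3, 92.9 and 101 TPM in the knockdown libraries against 114, 199 and 211 TPM in the controls. The groups did not overlap, but control replicate 1 lay nearer to the MEN1 shRNA libraries than to the other controls. SRSF1 fell from 175 ± 52.7 to 94.2 ± 6.54 TPM, which is -0.84 as a log2 fold change (SE 0.214, adjusted p 0.0124), with values of -1.12 without control replicate 1 and of -0.84 with an adjusted p of 0.183 when no filter on low genes was used.

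Gene-level coverage showed the same split of the SRSF1 controls more widely. Scaled for depth, the knockdown libraries had 45.3, 49.5 and 46.7 against 57.1, 168 and 178 in the controls, a log2 fold change of -1.33 (adjusted p 0.0418). SRSF2, which binds exonic enhancers and is recurrently mutated in myeloid neoplasms, varied widely within both groups. It measured 141, 284 and 304 TPM in the knockdown libraries against 175, 335 and 182 TPM in the controls, so that replicate 1 of the first group and replicates 1 and 3 of the second were low. The coefficient of variation of SRSF2 was 36.4% and 39.1%, against medians of 6.69% and 5.11% over the tested splicing regulators in the MEN1 shRNA and control groups. Its log2 fold change of 0.06 (SE 0.3403, adjusted p 0.892) changed sign with the library left out, from -0.14 to 0.41.

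SRSF10, an SR-like protein that turns into a splicing repressor when dephosphorylated, measured 127, 127 and 141 TPM in the knockdown libraries against 91.7, 99.8 and 101 TPM in the controls. The groups did not overlap, and SRSF10 rose from 97.5 ± 5.07 to 131 ± 7.95 TPM, which is 0.43 as a log2 fold change (SE 0.0680, adjusted p 0.00135). Its coverage scaled for depth rose by less, 30.5 to 32.7 against 26.2 to 28.9 (log2 fold change 0.18, adjusted p 0.0365). SRSF7, which is also an adaptor for mRNA export, fell from 216 ± 9.58 to 174 ± 13.0 TPM, which is -0.31 as a log2 fold change (adjusted p 0.00684). With no filter on low genes, SRSF7 did not pass (adjusted p 0.0645). The other 8 SR genes did not pass and had log2 fold changes between -0.12 (SRSF11) and 0.15 (SRSF8). SRSF3, SRSF5 and SRSF9 were at 168 to 261 TPM in all libraries, SRSF4, SRSF6 and SRSF11 at 104 to 149 TPM and SRSF8 at 26.7 to 37.6 TPM, and of these 7 only SRSF6 had groups that did not overlap (0.05, adjusted p 0.427). Summed over the 12 genes, the level was 1730 ± 65.1 TPM with the MEN1 shRNA and 1801 ± 182 TPM in the controls, a difference within the spread of the controls.

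**Figure D4:**
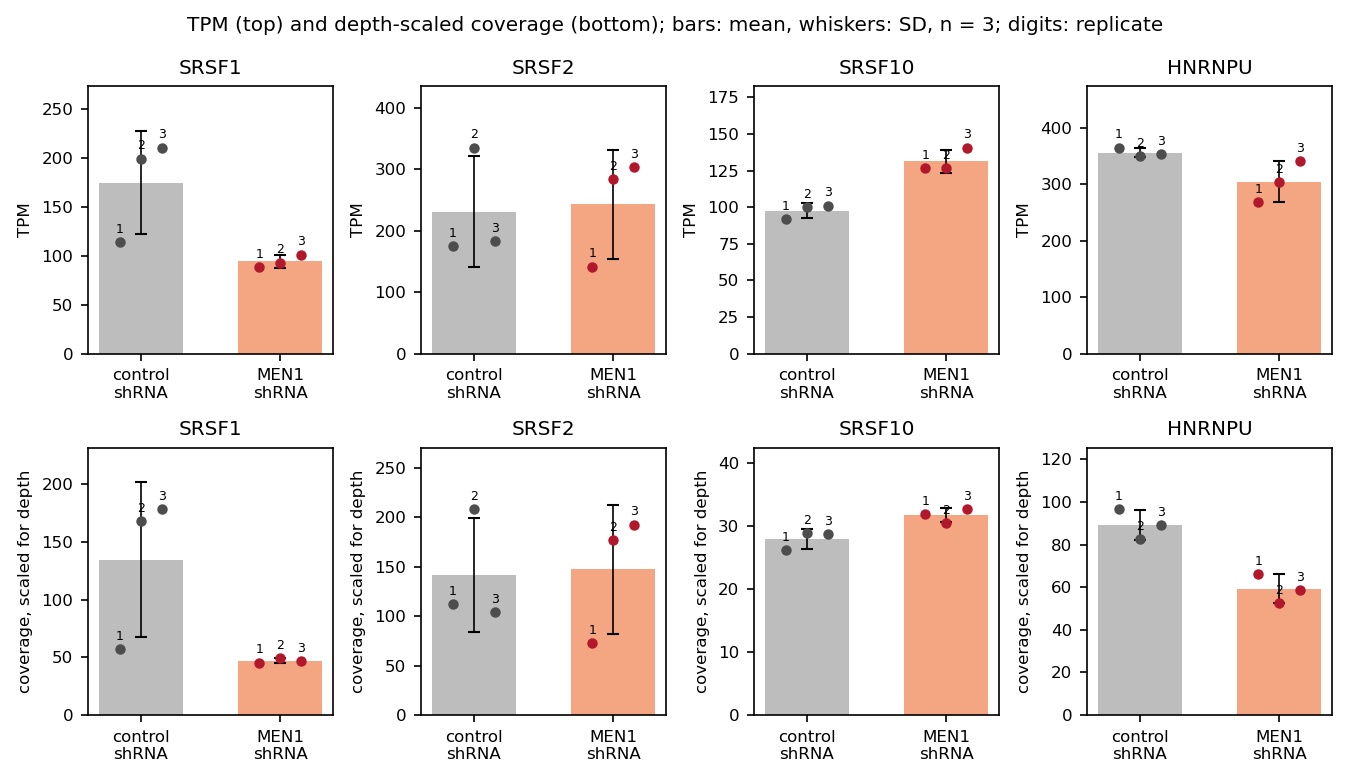
The top row gives TPM for SRSF1, SRSF2, SRSF10 and HNRNPU in control and MEN1 shRNA libraries (x axis). The bottom row gives their gene coverage, scaled for depth and by each library's ratio of TPM to FPKM (y axes, from 0). Bars are means, whiskers the SD (n = 3), points single libraries and digits the replicate numbers. Control replicate 1 of SRSF1 lies near the MEN1 shRNA libraries in both rows, SRSF2 overlaps in both, SRSF10 differs by less in coverage and HNRNPU by more.

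The most abundant of the splicing regulators were hnRNP genes, led by HNRNPA1 at 1119 to 1555 TPM, HNRNPC at 779 to 953 TPM and HNRNPK at 831 to 900 TPM. Others were far lower, with control means of 42.6 TPM for HNRNPA0 and 35.9 TPM for HNRNPLL. In limma 5 of 18 passed (27.8%), all of them lower, against 53.6% of all genes tested, 22.1% higher and 31.5% lower. The share of lower calls was thus near the background. The median log2 fold change of the 18 was -0.06. Under median-of-ratios scaling 7 passed, 4 higher (HNRNPA3, HNRNPL, HNRNPLL and HNRNPR) and 3 lower. Quantile normalization gave 1 higher and 6 lower, FPKM 0 and 4, and TPM rescaled without globin and mitochondrial genes 1 and 4. The split of directions thus depends on the scaling, with more lower than higher calls in all but median-of-ratios scaling. HNRNPA1, an hnRNP A/B protein and a known silencer of exons, measured 1212, 1119 and 1201 TPM in the knockdown libraries against 1555, 1423 and 1446 TPM in the controls. The groups did not overlap, and HNRNPA1 fell from 1475 ± 70.8 to 1177 ± 50.8 TPM, which is -0.32 as a log2 fold change (SE 0.0614, adjusted p 0.00308), although depth-scaled coverage gave -0.23 with an adjusted p of 0.226. Its share of the summed hnRNP level was 14.1% ± 0.627 against 16.6% ± 0.668.

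Processed pseudogenes can take reads from these genes. The tables hold 135 pseudogene rows named after the 38 genes, 74 of them after HNRNPA1, and these 74 held 8.62% to 10.8% of the summed level of HNRNPA1 and its copies. With the copies added, HNRNPA1 was lower by a log2 fold change of -0.31 (adjusted p 0.00418). HNRNPA3, with 16 such rows holding 4.89% to 7.19%, did not pass with or without them (0.10 and 0.11). HNRNPC copies held 2.04% to 2.85% and the HNRNPU copy up to 2.38%. On the same strand, a readthrough row that spans HNRNPH2 and its neighbour RPL36A held up to 6.16% of the HNRNPH2 level. Genes on the opposite strand overlap several members, among them an unnamed gene at SRSF1, MFSD11 at SRSF2, CBX3 at HNRNPA2B1, COX20 at HNRNPU and RBM38-AS1 at RBM38. Whether the quantification used strand is not given in the sources used here, so reads of such pairs may be mixed.

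The hnRNP gene that kept its call under every alternative was HNRNPH2, which binds runs of G. It was at 75.7, 80.2 and 79.1 TPM against 99.9, 108 and 102 TPM in the controls, with no overlap, and fell by 0.40 on the log2 scale (SE 0.0582, adjusted p 0.000892). The depth-scaled coverage of HNRNPH2 equals its TPM in every library, so that alternative reused the same values. Its near-identical paralog HNRNPH1 was far more abundant by TPM and did not pass, at 538 ± 30.1 and 536 ± 24.0 TPM (log2 fold change 0.00, adjusted p 0.971). HNRNPDL, which regulates its own mRNA through an exon in its 3′ region, fell from 376 ± 35.5 to 271 ± 38.7 TPM, which is -0.48 as a log2 fold change (adjusted p 0.00837), with MEN1 shRNA libraries at 314, 240 and 258 TPM and controls at 339, 410 and 380 TPM. With no filter on low genes, HNRNPDL did not pass (adjusted p 0.123). The related HNRNPD, known as AUF1 for binding AU-rich elements, did not pass (-0.13, adjusted p 0.300). HNRNPA0 and HNRNPA2B1, 2 further A/B-type proteins, fell by 0.26 (adjusted p 0.0146) and 0.19 (adjusted p 0.0340). These calls were lost under 4 and 10 of 18 alternatives, among them median-of-ratios scaling for both.

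The remaining hnRNP genes did not pass. HNRNPU, the scaffold attachment factor, measured 269, 304 and 341 TPM in the knockdown libraries against 365, 350 and 353 TPM in the controls. The groups did not overlap (log2 fold change -0.23, adjusted p 0.0548), and its depth-scaled coverage lay further apart, at 66.2, 52.6 and 58.6 against 96.6, 82.5 and 89.0 (-0.59, adjusted p 0.00335). HNRNPM was close to the threshold as well (-0.20, adjusted p 0.0523), and its groups did not overlap. HNRNPF, a G-run binding relative of HNRNPH1, was at 324, 459 and 455 TPM against 346, 371 and 347 TPM. Here MEN1 shRNA replicate 1 lay below all controls and the other 2 above them, and without that replicate the log2 fold change was 0.37 (adjusted p 0.00193) in place of 0.20 (adjusted p 0.235). HNRNPR differed by 0.27 in TPM (adjusted p 0.0688) and by -0.05 in coverage, and HNRNPLL, known for splicing of CD45 in T cells, differed by 0.24 (adjusted p 0.119). HNRNPAB, HNRNPC, HNRNPH3, HNRNPK, HNRNPL and HNRNPA3 lay between -0.11 and 0.10, with overlapping groups. The summed level of the 18 genes was 8337 ± 385 TPM with the MEN1 shRNA and 8893 ± 68.1 TPM in the controls.

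Transcripts marked for nonsense-mediated decay are common in these genes. In GENCODE v29, 26 of the 37 tested genes (70.3%) had at least 1 transcript of that type, against 44.7% of 11125 protein-coding genes tested. All 12 SR genes had one, and 12 of 18 hnRNP genes. Gene-level TPM sums such transcripts with the coding ones, and the division between them was not analysed here.

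The genes that act with these regulators were described from 9 lists of 148 genes, of which 137 were tested. In all, 73 passed (53.3%), 24 higher and 49 lower, against the background of 53.6%, and their median log2 fold change was -0.07, as for all genes tested. Under median-of-ratios scaling the split was 41 higher and 38 lower. The shares by list are compared in the plot of genes past the threshold.

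The calls in these lists are also read against all genes tested, of which 53.6% passed, 22.1% higher and 31.5% lower. Upstream of the SR proteins, 9 of 11 kinases, phosphatase subunits and import factors passed, 5 higher and 4 lower (median 0.22). With so few genes in a list, a share above or below the background was not tested. CLK3, a nuclear kinase of SR proteins, rose from 45.4 ± 1.18 to 95.4 ± 11.6 TPM, which is 1.05 as a log2 fold change (adjusted p 9.6e-05). CLK2 rose by 0.48 on the log2 scale and PPP1CA, a catalytic subunit of protein phosphatase 1, by 0.58. Of 20 SR-related proteins 6 passed, 2 higher and 4 lower (median -0.06). SRRM1, a coactivator that bridges enhancers and snRNPs, had a log2 fold change of -0.75, SREK1 one of 0.50 and PNN one of -0.38. Among 13 other hnRNP-type proteins 3 rose and 3 fell (median 0.11), with CIRBP, a cold-inducible RNA-binding protein, at 0.45 and SYNCRIP at -0.52. Of 18 other tissue- or signal-dependent regulators 4 rose and 7 fell (median -0.03). The largest of these differences was at CELF2, which often acts against MBNL proteins: it fell from 68.8 ± 4.46 to 20.6 ± 1.96 TPM, which is -1.69 as a log2 fold change (adjusted p 2.2e-05), against -0.67 in depth-scaled coverage, where its values are near 1 and the added 1 compresses them. RBM4 was higher by 0.70 and RBM47 lower by 0.80. The splits in these lists depended on the scaling. Under median-of-ratios scaling the lists, in the order above, had 6 higher and 3 lower, 3 and 2, 6 and 3, and 7 and 4. With quantile normalization they had 7 and 3, 3 and 3, 3 and 3, and 6 and 5. FPKM gave 5 and 4, 2 and 3, 4 and 3, and 4 and 5. TPM rescaled without globin and mitochondrial genes gave 5 and 3, 3 and 2, 6 and 3, and 5 and 5.

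Calls in the core spliceosome lists are read against the 22.1% of all genes tested that were higher and the 31.5% that were lower. In the Sm core list 6 of 8 passed and all 6 fell (median -0.42), and the count was 6 lower and 0 higher under each scaling tried. SNRPN changed by -0.76, SNRPB by -0.67 and SNRPF by -0.48. In the U1 and U2 snRNP and U2AF list 2 of 20 rose and 9 fell (median -0.17), and those with the lowest adjusted p were SF3B5 at -0.60, SNRPB2 at -0.53 and SNRPC at -0.39. In the U5 and tri-snRNP list 2 of 15 rose and 6 fell (median 0.02), with PPIH at -0.78, EFTUD2 at -0.63 and SNRNP27 at 0.55. In the Prp19 and activation list 4 of 17 rose and 5 fell (median 0.06), with CDC5L at -1.38, CWC22 at -0.51 and PRPF19 at -0.48. CDC5L fell from 68.2 ± 1.33 to 25.9 ± 5.76 TPM. Under median-of-ratios scaling the last 2 lists had 6 higher and 5 lower, and 8 higher and 4 lower. With quantile normalization they had 4 and 5, and 7 and 4, and with FPKM 3 and 5, and 5 and 5. Of 15 nonsense-mediated decay factors 2 rose and 5 fell (median -0.15), and MAGOH at -0.43, EIF4A3 at -0.40 and SMG5 at -0.28 had the lowest adjusted p-values. With quantile normalization 4 of these factors were higher and 4 lower. Median-of-ratios scaling and FPKM each gave 2 higher and 4 lower.

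**Figure D5:**
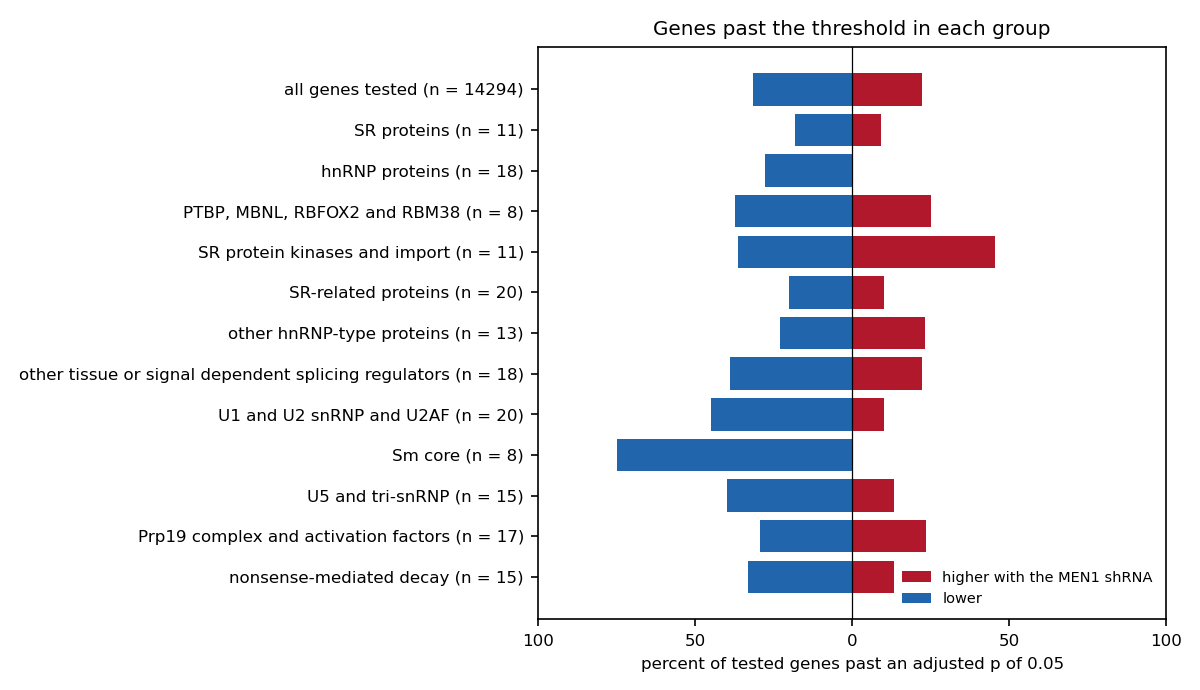
Horizontal bars give the percent of tested genes past an adjusted p of 0.05 in limma (x axis), lower with the MEN1 shRNA to the left in blue and higher to the right in red, for all genes tested, the 3 groups of splicing regulators and the 9 related lists (y axis, with the number tested). The SR and hnRNP bars are shorter than that of all genes (53.6% in both directions together), and Sm core has only lower calls.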

How the data were processed

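Poly(A)-selected RNA was made into strand-specific libraries, per the labels' protocols. Reads were processed with Trimmomatic, STAR 2.7.1a, Picard 2.20.4 and StringTie 2.0.4 on hg38, per the submitters' processing notes, which give no role or order. The deposited TPM values sum to 1000000 per library, the deposited FPKM values are their fixed multiple within a library, and the deposited coverage, a signal per base, is not scaled for depth, per the file headers and values. Coverage was therefore scaled by the aligned bases inferred from single-transcript genes. It was then multiplied by each library's fixed ratio of TPM to FPKM. Depth-scaled coverage thus shares the scaling of TPM between libraries and is not independent of it. In control replicate 2, slightly negative residues in 2 unnamed genes were set to 0. Read counts were not used.

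Genes that reached a TPM of 1 in 3 or more of the 6 libraries were tested on log2(TPM + 1) with limma 3.58.1 in R 4.3.3 (lmFit and eBayes with trend, 2-sided), with Benjamini-Hochberg adjustment over 14294 genes and a threshold of 0.05. Every adjusted p is from limma. The step was tested on simulated data with few changed genes and independent normal noise. In these data most genes passed, so the simulation does not test the calls made here. The pseudocount understates changes of low genes. Summaries and figures used Python 3.11.15, pandas 2.3.3, numpy 2.4.6 and matplotlib 3.10.9.

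Groups came from the titles. The splicing regulators and the lists were chosen with earlier results of these data known. All splicing regulators were named, with values per library for PTBP, MBNL, RBFOX2, RBM38 and those called at 1.5-fold or more, and from each list at most 3 called genes with the lowest adjusted p; 1 of these is not reported here. Library values of other genes were added after they were seen, as was coverage as an alternative measure. Alternatives were the pseudocount, filter, scaling, FPKM, eBayes without trend, a replicate block, each library left out, and added pseudogene or overlapping rows. Gene positions were compared with GENCODE v29, in which all 38 genes had the same strand and an overlapping position.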

Additional observations from a re-analysis of the deposited data

How the results depend on the processing

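Of 128 comparisons of counts and of MEN1 with an alternative, 121 stayed within 1.5 times the reported count or on their side of the threshold. With no filter on low values, the splicing regulators past the threshold fell to 7, the SR genes to 1, the hnRNP genes to 3, the PTBP, MBNL, RBFOX2 and RBM38 genes to 3, the splicing regulators at 1.5-fold to 2 and the list genes to 48, over many more genes tested. With coverage in place of TPM, 5 SR genes passed. Leaving out 1 library gave 6577 to 7542 genes, 12 to 14 splicing regulators, 3 SR genes, 4 to 6 hnRNP genes, 5 to 6 of the PTBP, MBNL, RBFOX2 and RBM38 genes, 4 to 6 at 1.5-fold and 53 to 72 list genes. Same-numbered libraries of the groups had deviations correlated at 0.02, -0.03 and -0.01, so the numbers were not taken to pair the libraries. With a replicate block 7012 genes, 12 splicing regulators and 63 list genes passed. Of the 13 splicing regulators past the threshold, 5 (SRSF10, HNRNPH2, MBNL1, MBNL2 and RBM38) passed in the same direction under all alternatives run. Some alternatives could not change their values. Adding pseudogene rows left all 5 unchanged, adding same-strand rows left SRSF10, MBNL2 and RBM38 unchanged, and the coverage of HNRNPH2 equals its TPM. Sign changes occurred only at genes that did not pass. Under median-of-ratios scaling the log2 fold change was 0.023 for SRSF3, 0.084 for SRSF9 and 0.085 for HNRNPAB, and after TPM was rescaled to leave out globin and mitochondrial genes it was 0.0024, 0.064 and 0.064. FPKM gave 0.029 for SRSF9 and 0.0295 for HNRNPAB, and quantile normalization 0.028 for SRSF9 and -0.044 for HNRNPH1. Coverage gave 0.0030 for HNRNPAB, -0.073 for HNRNPH1, -0.046 for HNRNPR and -0.072 for RBFOX2, where the added 1 compresses the value. With 1 library left out the values ran from -0.14 to 0.41 for SRSF2, -0.0066 to 0.21 for SRSF4, -0.054 to 0.21 for SRSF5, -0.022 to 0.029 for SRSF9, -0.027 to 0.037 for HNRNPAB, -0.039 to 0.041 for HNRNPH1 and -0.020 to 0.065 for HNRNPH3. The cause of these changes was not tested. With 3 libraries a group, the number of libraries limits the precision.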
